A study of Macaca mulatta with 51 samples.

Results

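Markers of lipid-associated macrophages were followed through treatment with FGF21 and its withdrawal in DIO (diet-induced obese) rhesus macaques. The set was a given list of 10 gene symbols (TREM2, TYROBP, GPNMB, SPP1, CD9, CD68, FABP5, MSR1, MARCO and LGALS3), and each was looked up by its symbol among the 16033 genes of the count table. All 10 were present, each on 1 gene, and all 10 passed the filter on low counts in both tissues. Subcutaneous abdominal adipose tissue (AT) was the tissue of interest and gastrocnemius skeletal muscle (SM) the contrast. Both sexes were represented by 5 animals each, all females being without ovaries. The 10 animals were between 11 and 22 years of age, were obese without diabetes and ate a high-fat diet. All groups therefore came from animals obese at the start and shared the diet. The pre-treatment samples served as the controls, with no untreated animals followed in parallel. According to the paper, the animals lost body weight during treatment and returned to baseline weight in the washout period. The time points thus differed in body weight as well as in treatment, and their effects cannot be told apart. The treatment, native FGF21 of human sequence given under the skin, lasted 12 weeks and its daily dose was raised in steps, with 1 animal kept below the final dose of the others. Biopsies were taken before treatment (pre-treatment), at its end (post-treatment) and 16 weeks after the last dose (washout). In the order of these time points, AT of 10 animals gave 10, 9 and 8 libraries, and SM of 8 of them gave 6, 8 and 7.

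Macrophages of obese AT gather around dying adipocytes, take up their lipid and degrade it in lysosomes, and cells of this state are known as lipid-associated macrophages. The state depends on TREM2, a surface receptor for lipids that signals through the adaptor TYROBP. Its other markers are the lysosomal and melanosomal glycoprotein GPNMB, the lysosomal membrane protein CD68, the fatty acid carrier FABP5, the scavenger receptors MSR1 and MARCO, the lectin LGALS3, the secreted phosphoprotein SPP1 (osteopontin) and the tetraspanin CD9. None of the 10 belongs to these cells alone: CD9, FABP5, LGALS3 and SPP1 are also made by other cells of AT and SM.

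Total counts per library ranged from 14455195 to 23940980. Levels are given as CPM (the share of a library's counts, expressed in parts per 10 to the power of 6, scaled within a tissue by the TMM method), which is not corrected for gene length, so levels are compared between samples and not between genes. The tissues carried their own marker genes. The summed level of 7 skeletal muscle genes was 47.2 to 163 CPM over the AT libraries and 41499 to 220375 CPM over the SM libraries. The 4 mature adipocyte genes found in the table, of 7 listed, summed to 2486 to 12741 CPM in AT and 256 to 1696 CPM in SM. In the pre-treatment comparison of the tissues given below, 3 of these 4 had estimates higher in AT and 1 lower (log2 fold change -0.68). Their sum in SM is therefore no measure of adipocytes alone.

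In AT, the median level of all 10 markers was highest post-treatment, and that of 9 of them, CD9 excepted, was lowest at washout. Of the 10 markers, 1 was differentially expressed (DE, meaning more than 0.26 on the log2 scale in either direction at an adjusted p under 0.05) post-treatment compared to pre-treatment, namely GPNMB, which increased 2.65-fold. The background was 6.98% of the 13367 genes tested being DE and higher. The estimates of all 10 markers were above 0, with a median log2 fold change of 1.09 against 0.03 over all genes tested, and 8 of the 10 had an unadjusted p under 0.05, as had 34.3% of all genes tested. From post-treatment to washout, 9 of the 10 were DE and lower, against 17.8% of all genes tested, and 0 were DE and higher, against 17.6%. The median log2 fold change was -1.63 against -0.0021 over all genes. The exception was CD9. These comparisons share the post-treatment libraries, so the rise and the fall are not independent of each other. In bulk tissue, fewer macrophages and less RNA of these genes per macrophage cannot be told apart.

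**Figure D1:**
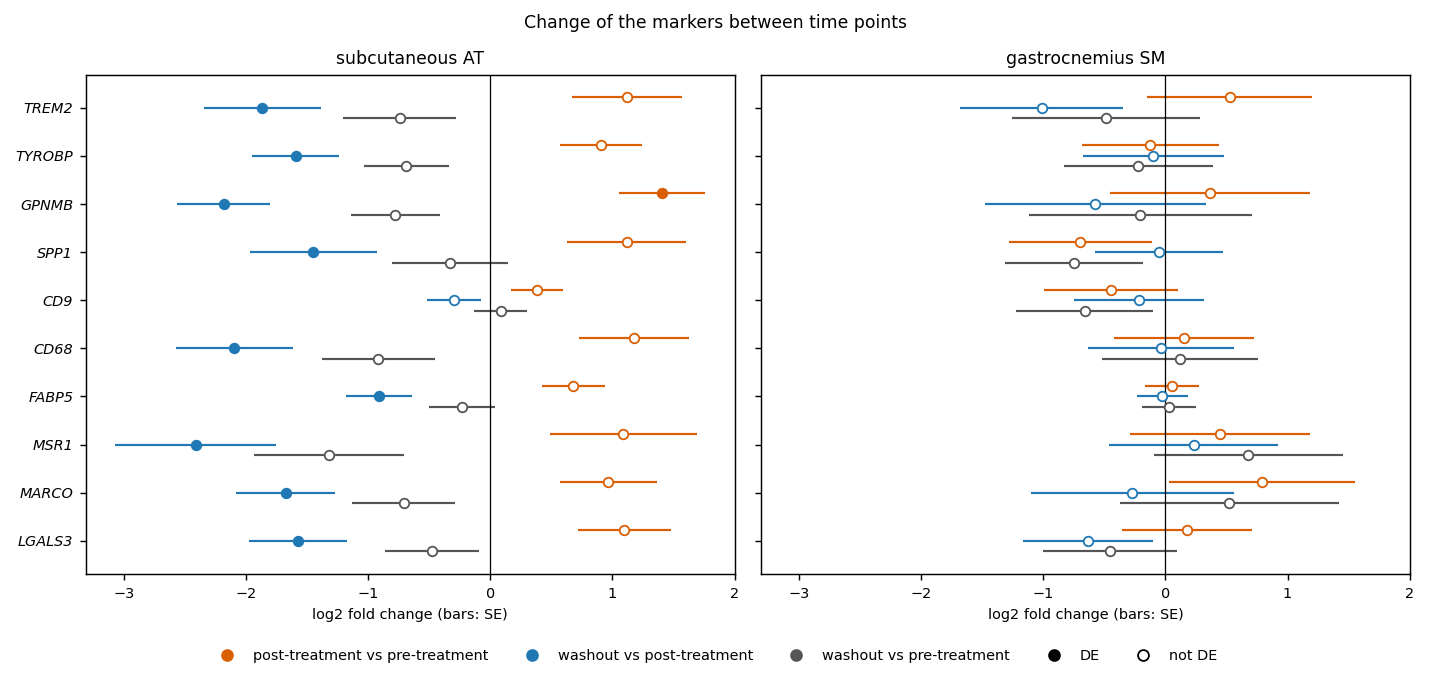
Log2 fold change of each marker (horizontal axis, bars are standard errors) for the 3 comparisons of time points in AT (left) and SM (right), with filled points for DE genes. In AT the washout vs post-treatment estimates run from -2.41 for MSR1 to -0.30 for CD9 and 9 of 10 are filled, whereas in SM no point is filled.

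The receptor TREM2 (ENSG00000095970) was at 6.17 to 65.5 CPM pre-treatment (median 31.9, n = 10), 20.7 to 109.6 CPM post-treatment (median 60.2, n = 9) and 5.86 to 84.4 CPM at washout (median 14.8, n = 8). The groups overlapped: 4 of 9 post-treatment libraries lay above the highest pre-treatment library, and 6 of 8 washout libraries lay below the lowest post-treatment library. The post-treatment increase of 1.12 on the log2 scale (SE 0.45) did not pass the test (adjusted p = 0.0887), and it was seen in 6 of 9 animals. The decrease at washout did pass, at -1.87 (SE 0.48, adjusted p = 0.00552), and it was seen in 7 of 8 animals. Its adaptor TYROBP (ENSG00000011600), which also serves other receptors of myeloid and natural killer cells, ran in parallel, at 12.3 to 70.4 CPM (median 37.8), 31.9 to 145 CPM (median 51.8) and 12.6 to 74.3 CPM (median 18.0) in the same order. All washout libraries but that of animal 23004 were below the lowest post-treatment library. TYROBP was higher post-treatment in 7 of 9 animals (log2 fold change 0.91, SE 0.33, adjusted p = 0.0678) and fell at washout in 7 of 8 (log2 fold change -1.59, SE 0.35, adjusted p = 0.00215).

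GPNMB (ENSG00000136235), a transmembrane glycoprotein that macrophages induce under lysosomal stress, was at 728 to 2743 CPM pre-treatment (median 1684), 1989 to 8402 CPM post-treatment (median 4094) and 503 to 2663 CPM at washout (median 750.2). Although the ranges overlapped, 6 of 9 post-treatment libraries exceeded every pre-treatment library, and 6 of 8 washout libraries were below every post-treatment library. The post-treatment log2 fold change was 1.41 (SE 0.35, adjusted p = 0.0157), with an increase in 8 of 9 animals and in 7 of the 8 animals whose pair of libraries carried identifiers of the same number series. This call was lost when animal 22130 was left out, which gave a log2 fold change of 1.21 and an adjusted p of 0.057, and it was kept when any other animal was left out (log2 fold change 1.14 to 1.53). At washout GPNMB fell by 2.18 on the log2 scale (SE 0.38, adjusted p = 0.000325), to 0.220 of its post-treatment level.

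Because GPNMB is also made by pigment cells, melanocyte genes are given beside it. The 5 melanocyte genes listed summed to 5.89 to 17.0 CPM in the pre-treatment AT libraries, 11.1 to 48.7 CPM post-treatment and 5.16 to 11.5 CPM at washout. Of the 4 tested, 2 were DE and higher post-treatment, against 6.98% of all genes. They were MLANA with a log2 fold change of 1.79 (adjusted p = 0.00241) and TYR with 1.13 (adjusted p = 0.0463). All 4 were DE and lower at washout compared to post-treatment, against 17.8% of all genes. TYRP1, which encodes a melanin-forming enzyme, had no count in any post-treatment library. Their part in the GPNMB result was not tested.

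The scavenger receptors MSR1 and MARCO take up modified lipoproteins and particles. MSR1 (ENSG00000038945) was at 15.3 to 395 CPM pre-treatment (median 151), 95.2 to 920.1 CPM post-treatment (median 227) and 10.8 to 371 CPM at washout (median 40.8). Only 1 post-treatment library, that of animal 20275, lay above all pre-treatment libraries. The post-treatment estimate had a wide error (log2 fold change 1.09, SE 0.60, adjusted p = 0.206), with 5 of 9 animals higher. The fall at washout was the largest of the 10 markers (log2 fold change -2.41, SE 0.66, adjusted p = 0.00812), with 6 of 8 animals lower. MARCO (ENSG00000019169) was at 3.60 to 36.6 CPM, 3.26 to 123 CPM and 2.42 to 23.9 CPM in the same order, with medians of 10.4, 15.9 and 8.0 CPM. It differed from the rest in which animals were high: animal 26292 had the highest level at all 3 time points, and 2 post-treatment libraries (animals 21189 and 26292) stood above every pre-treatment library. MARCO was higher post-treatment in 8 of 9 animals, all but animal 20456 (log2 fold change 0.97, SE 0.40, adjusted p = 0.0942), and fell at washout in 8 of 8 (log2 fold change -1.67, SE 0.41, adjusted p = 0.00389).

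CD68 and FABP5 handle the lipid load, CD68 as a scavenging protein of the lysosome and FABP5 as a carrier of fatty acids in the cytosol. CD68 (ENSG00000129226) was at 86.4 to 628 CPM pre-treatment (median 273), 217 to 1295 CPM post-treatment (median 631) and 48.1 to 806 CPM at washout (median 119). The post-treatment and washout groups were apart except for 2 washout libraries, those of animals 23004 and 26292. The log2 fold change of CD68 was 1.18 post-treatment (SE 0.45, adjusted p = 0.0757) and -2.09 at washout (SE 0.48, adjusted p = 0.00271). FABP5 (ENSG00000164687) moved in a narrower range, from 202 to 606 CPM (median 379) to 331 to 1249 CPM (median 540) and back to 219 to 571 CPM (median 329). It was higher post-treatment in 7 of 9 animals (log2 fold change 0.68, SE 0.26, adjusted p = 0.0769) and fell at washout in 7 of 8 (log2 fold change -0.91, SE 0.27, adjusted p = 0.0130).

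LGALS3 (ENSG00000131981), a galactose-binding lectin that gathers at damaged lysosomes, was at 207 to 1404 CPM pre-treatment (median 523), 629 to 3050 CPM post-treatment (median 1038) and 223 to 1852 CPM at washout (median 362). Every washout library but that of animal 23004 was below the lowest post-treatment library. LGALS3 came closest to the threshold after GPNMB (log2 fold change 1.10, SE 0.38, adjusted p = 0.0560), and it fell at washout (log2 fold change -1.57, SE 0.40, adjusted p = 0.00521). SPP1 (ENSG00000118785), a secreted ligand of integrins and CD44, was at 29.9 to 349 CPM, 68.3 to 1584 CPM and 16.7 to 346 CPM, with medians of 127, 241 and 99.5 CPM. Its highest value, in the post-treatment library of animal 20275, was far above the next, 508 CPM in animal 20456. The estimate for SPP1 was 1.12 post-treatment (SE 0.49, adjusted p = 0.114), and it fell at washout in 6 of 8 animals (log2 fold change -1.45, SE 0.52, adjusted p = 0.0351). The washout call for SPP1 was lost without animal 21189, 21866, 22130 or 24849, at adjusted p values of 0.0547 to 0.0807, and with the identifier series in the model, at 0.0612.

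CD9 (ENSG00000010278), a tetraspanin of many cell types including fibroblasts, endothelium and adipocyte progenitors, changed least. It was at 112 to 210 CPM pre-treatment (median 179), 141 to 404 CPM post-treatment (median 220.5) and 94.7 to 304 CPM at washout (median 192), with the groups overlapping widely. The log2 fold change was 0.38 post-treatment (SE 0.21, adjusted p = 0.206) and -0.30 at washout (SE 0.22, adjusted p = 0.300), and CD9 was lower at washout in 4 of 8 animals. Its median, unlike those of the other 9 markers, was higher at washout than pre-treatment.

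**Figure D2:**
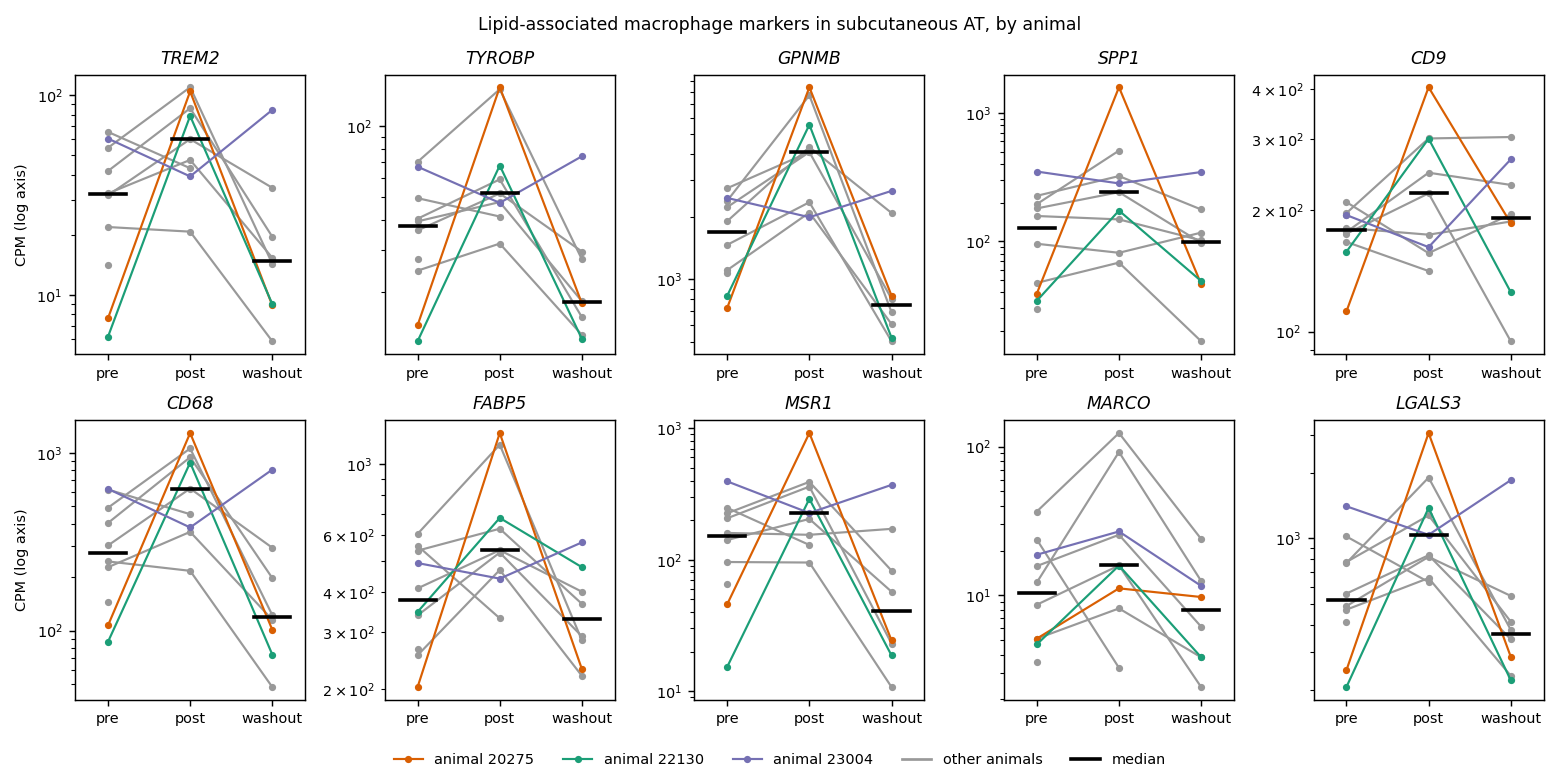
Level of each marker in AT in CPM (vertical log axis) pre-treatment, post-treatment and at washout, with a line for each animal and a black bar for the median. Animals 20275 and 22130 start low and peak post-treatment, whereas animal 23004 has its washout value above its post-treatment value for 9 of 10 markers.

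The changes varied between animals. All 10 markers were higher post-treatment than pre-treatment in animals 20275, 21189, 22130 and 24849, with median changes over the markers of 3.56, 1.01, 2.59 and 0.70 on the log2 scale. In animals 20261 and 26292, 8 of 10 were higher, and in animal 21866, 6 of 10. In animal 20456, by contrast, 8 of 10 markers were lower post-treatment (median change -0.53), and in animal 23004, 9 of 10 (median change -0.37). The animals with the 2 largest rises were those with the lowest pre-treatment levels. The pre-treatment library of animal 22130 was the lowest of its group for 5 markers and that of animal 20275 for 3 others, whereas the post-treatment library of animal 20275 was the highest for 8 of 10. The number of DE markers post-treatment varied with the animals in the fit: it was 6 without animal 20456, 4 without animal 23004 and 0 without animal 22130. In the same fits, 7.68%, 7.57% and 2.22% of all genes were DE and higher.

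**Figure D3:**
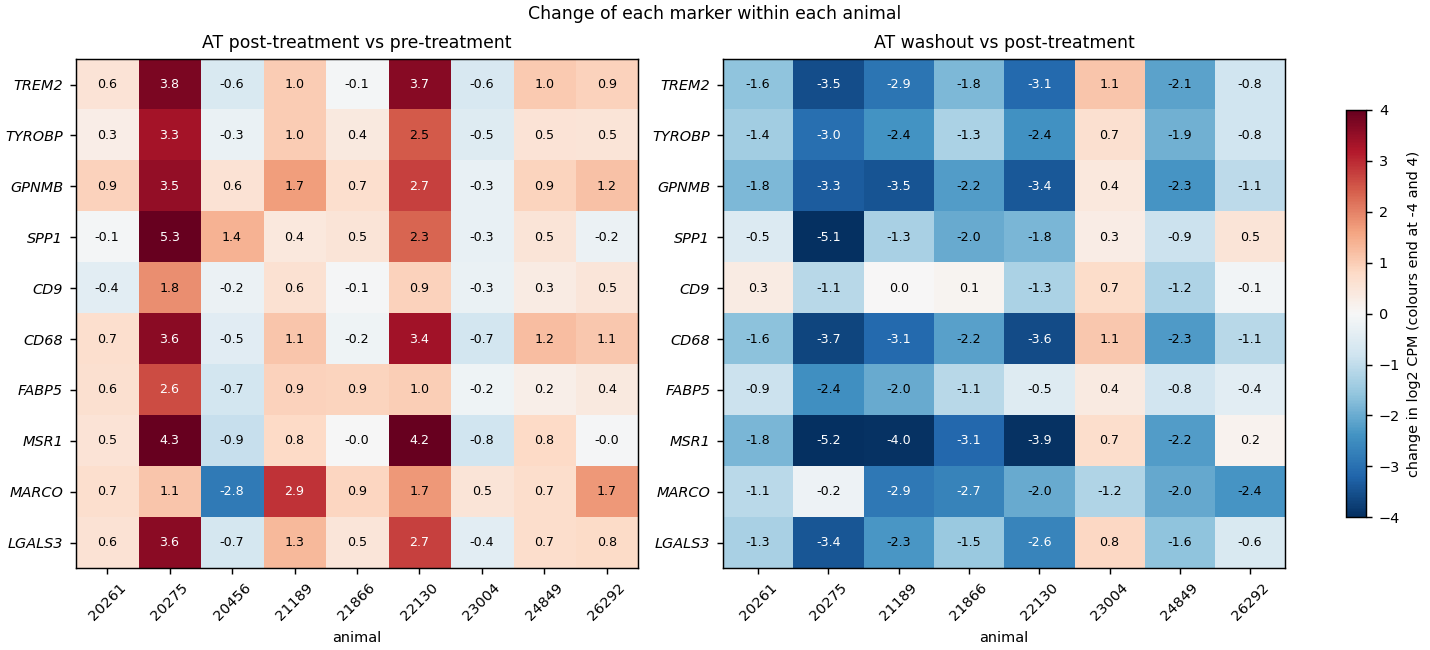
Change of each marker in log2 CPM (rows) within each animal (columns) in AT, post-treatment vs pre-treatment (left, 9 animals) and washout vs post-treatment (right, 8 animals), red for higher and blue for lower. The columns are more uniform than the rows: animals 20275 and 22130 are red and then blue throughout, and animal 23004 is mostly blue and then mostly red.

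The fall at washout was seen in most animals. At least 8 of 10 markers were lower at washout than post-treatment in 7 of 8 animals, all 10 of them in animals 20275, 22130 and 24849. In animal 23004, 9 of 10 were higher at washout (median change 0.68), MARCO being the exception with a change of -1.21. The washout library of that animal held the highest value of its group for 8 of 10 markers. Without that library, 9 markers were still DE at washout compared to post-treatment.

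At washout compared to pre-treatment, 0 of the 10 markers were DE by edgeR's quasi-likelihood test, against a background of 20.5%. An unadjusted p under 0.05 was reached by 2, MSR1 (log2 fold change -1.32, SE 0.62) and GPNMB (-0.78, SE 0.36), and by 34.0% of all genes tested. The estimates of 9 markers were below 0 and that of CD9 was 0.08, with a median of -0.70. This comparison depended on the method and on 1 library. voomWithQualityWeights of limma, which gives outlying libraries less weight, called TYROBP, GPNMB, CD68 and MSR1 DE and lower, against 13.4% of all genes, whereas DESeq2 called 0, against 9.05%. Without the washout library of animal 23004, GPNMB (log2 fold change -1.07, adjusted p = 0.043) and CD68 (-1.31, adjusted p = 0.0466) were DE and lower, against 7.37% of all genes. That fit was added after the data were seen. With animal 23004 left out entirely, 0 markers were DE, against 17.4% of all genes. Leaving out any other animal also gave 0. All 10 markers were below their pre-treatment level in animals 20261 and 24849, whereas 6 to 8 were above it in animals 20275, 22130, 23004 and 26292.

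General macrophage genes moved alongside the markers. The 10 pan-macrophage genes included the complement genes C1QA, C1QB and C1QC and the Fc receptor chain FCER1G. Of the 10, 6 were DE and higher post-treatment and all were DE and lower at washout, against 6.98% and 17.8% of all genes. The pan-macrophage genes had median log2 fold changes of 0.93 and -1.68, close to the 1.09 and -1.63 of the markers. Relative to pre-treatment, 3 of the 10 pan-macrophage genes were DE and lower at washout, against 7.96% of all genes. C1QC, a subunit of the first complement component, was at 33.0 to 143 CPM pre-treatment, 54.7 to 454 CPM post-treatment and 14.6 to 58.3 CPM at washout.

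To describe the markers relative to these genes, the change of the mean log2 level of the 10 pan-macrophage genes within an animal was subtracted from the change of each marker. Post-treatment, GPNMB rose more than the pan-macrophage mean in 8 of 9 animals, with a median difference of 0.56 on the log2 scale (SD 0.34). TYROBP and LGALS3 stayed close to it, with median differences of -0.09 (SD 0.34) and 0.03 (SD 0.40). CD9 rose less than the mean in 7 of 9 animals. From post-treatment to washout, CD9 lost less than the pan-macrophage mean in 8 of 8 animals (median difference 1.32) and FABP5 in 7 of 8 (median difference 0.56), whereas CD68 lost more in 7 of 8 (median difference -0.35). In animal 23004, whose markers were mostly higher at washout, the pan-macrophage mean changed by -0.02 on the log2 scale while TREM2 changed by 1.10.

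**Figure D4:**
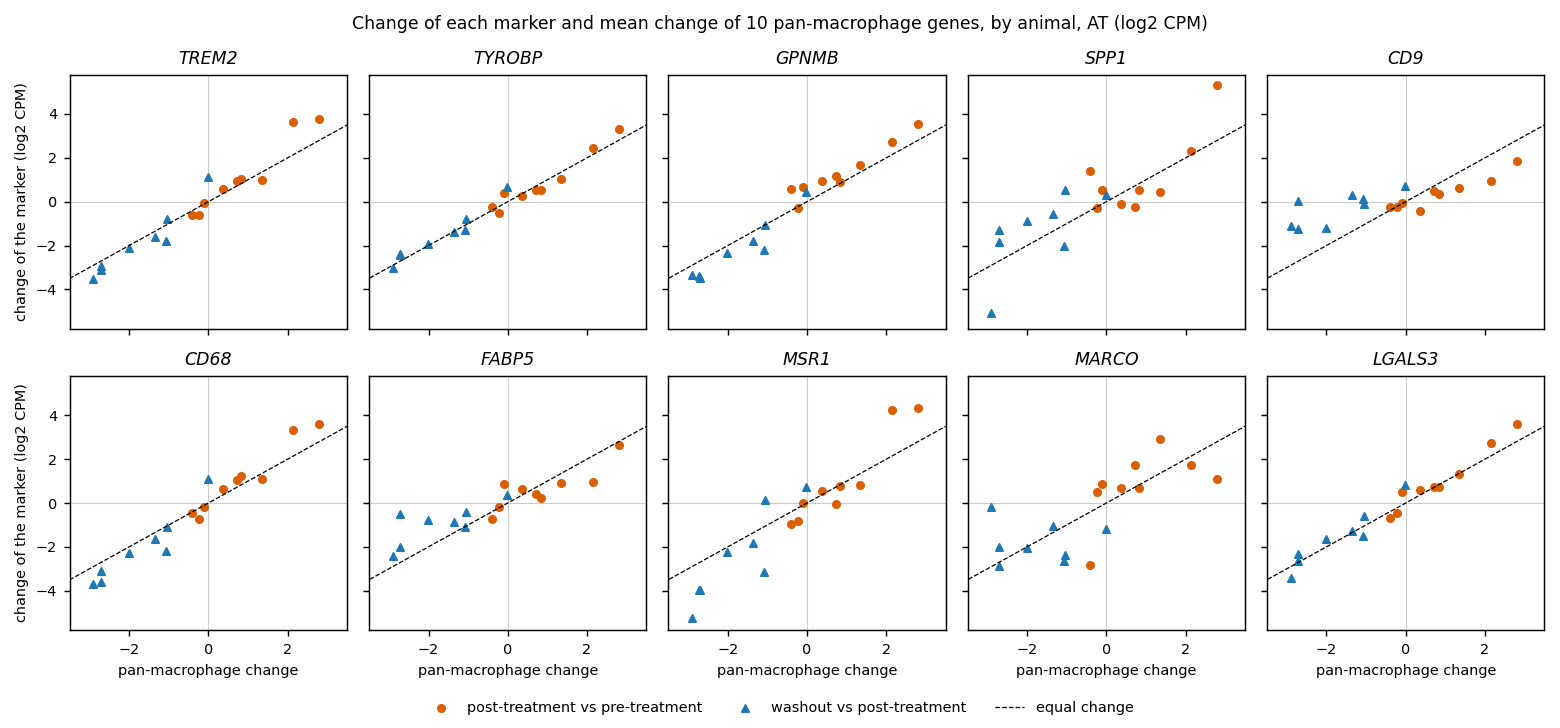
Change of each marker (vertical axis, log2 CPM) against the mean change of 10 pan-macrophage genes (horizontal axis, log2 CPM) in AT, with circles for post-treatment vs pre-treatment (9 animals) and triangles for washout vs post-treatment (8 animals) and a dashed line for equal change. TYROBP and LGALS3 follow the line, GPNMB circles lie above it in 8 of 9 animals, and CD9 triangles lie above it in all 8.

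A different adjustment was made in the fit, with the mean log2 level of the pan-macrophage genes as a covariate. Its slope was estimated for each gene, whereas the subtraction above fixed it at 1. From post-treatment to washout, the subtraction (median) and the covariate fit differed in sign for TREM2 (-0.24 and 0.68), CD68 (-0.35 and 0.41) and MSR1 (-0.85 and 0.61). For the other markers the signs were alike in this comparison. Post-treatment compared to pre-treatment, the signs differed for TREM2 (0.19 and -0.15), CD68 (0.30 and -0.11), SPP1 (-0.08 and 0.19), FABP5 (-0.33 and 0.05) and LGALS3 (0.03 and -0.0023). At washout compared to pre-treatment, they differed for MSR1 (-0.29 and 0.16) and MARCO (0.07 and -0.24). With the covariate, 0 of 10 markers were DE post-treatment by edgeR's quasi-likelihood test (background 1.77%). GPNMB, at 0.39 on the log2 scale (SE 0.16, adjusted p = 0.201), was the only one with an unadjusted p under 0.05. For washout vs post-treatment, 1 was DE, LGALS3, which was then higher (log2 fold change 0.57, SE 0.18, adjusted p = 0.045). Of all genes, 12.9% were DE there and 6.86% were DE and higher. For washout vs pre-treatment, 3 were DE and higher, namely TREM2 (log2 fold change 0.52, adjusted p = 0.0224), CD9 (0.57, adjusted p = 0.0136) and LGALS3 (0.57, adjusted p = 0.0033). In that comparison 28.3% of all genes were DE and 14.9% were DE and higher. Since the covariate itself changed with time point, these values describe the markers at a fixed pan-macrophage level and do not replace those given above.

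Across the 27 AT libraries, which share animals and time points, CD68 was the marker most like TREM2 (Spearman's rho 0.98), followed by TYROBP (0.96), LGALS3 (0.96), MSR1 (0.94), GPNMB (0.92), FABP5 (0.87), SPP1 (0.83), MARCO (0.60) and CD9 (0.50). Among the 12131 genes whose mean level in AT reached 1 CPM, CD68 was the fifth most like TREM2, whereas CD9 ranked 1561. The 10 genes most like TREM2 outside the 10 markers, at rho 0.98 to 0.99, included FGR, LPXN, CD52, ITGAX, LIPA, BIN2, RAC2, RPS6KA1 and STXBP2. FGR is a Src-family kinase of myeloid cells, ITGAX the integrin CD11c and LIPA the lysosomal acid lipase. ITGAX and LIPA are also in the list of the wider program described next. None of these 10 was DE post-treatment (log2 fold changes of 0.79 to 1.35, adjusted p 0.0662 to 0.153), and all 10 were DE and lower at washout (-2.01 to -1.11). Over the 45 pairs of markers, rho of the levels ran from 0.27 to 0.98 with a median of 0.81, and the 9 pairs with CD9 from 0.27 to 0.56.

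Genes that act with the markers were read from 3 further lists. The first held 20 other genes of the lipid-associated macrophage program, 19 of which were tested in AT. Post-treatment, 3 were DE and higher and 1 was DE and lower, against 6.98% and 8.49% of all genes. The 3 were ACP5, a lysosomal phosphatase of osteoclasts and macrophages (log2 fold change 1.11, adjusted p = 0.0147), the cathepsin CTSS (1.05, adjusted p = 0.0457) and the lysosomal cholesterol carrier NPC2 (0.66, adjusted p = 0.0266). LPL, the lipoprotein lipase, was the lower gene (-0.71, adjusted p = 0.0375). It is abundant in adipocytes and was at 4348 to 19528 CPM over the AT libraries. From post-treatment to washout, 12 of the 19 were DE and lower and 0 were DE and higher, with a median of -0.77. The shares of all genes were 17.8% and 17.6%. At washout compared to pre-treatment only ACP5 was DE (-0.83, adjusted p = 0.0444), against 20.5% of all genes.

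The second list held 12 genes around TREM2: its signalling partners, the growth factors of macrophages and their receptor, the proteases that shed it and related receptors. Of the 8 tested, 1 was DE and higher post-treatment and 1 was DE and lower, against 6.98% and 8.49% of all genes. The higher was TREM1, the receptor next of kin to TREM2 that uses the same adaptor (log2 fold change 1.37, SE 0.40, adjusted p = 0.0294). TREM1 was at 4.22 to 43.8 CPM pre-treatment, 8.07 to 128 CPM post-treatment and 1.51 to 38.1 CPM at washout. IL34, a growth factor for macrophages, was DE and lower (-0.28, SE 0.09, adjusted p = 0.036), in a narrow range of 15.8 to 29.9 CPM over all AT libraries. SYK, the kinase that TYROBP engages, was at 0.80 on the log2 scale (adjusted p = 0.0591), and MS4A4A, a membrane protein linked to TREM2 shedding, 0.42 (adjusted p = 0.0816). From post-treatment to washout, 5 of the 8 were DE and lower, among them TREM1 (-2.36), MS4A4A (-1.39) and SYK (-1.20), against 17.8% of all genes.

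The third list held the 4 MiT/TFE transcription factors, which drive lysosomal genes and GPNMB. TFE3 was DE and lower post-treatment (log2 fold change -0.56, SE 0.11, adjusted p = 0.00479) and remained so at washout compared to pre-treatment (-0.48, adjusted p = 0.00484). TFEB was at -0.27 (adjusted p = 0.0533) and MITF at -0.04 (adjusted p = 0.875) post-treatment. TFEC, the member restricted mostly to myeloid cells, was the only one with an estimate above 0 (0.86, SE 0.34, adjusted p = 0.0827), and it fell at washout (-0.98, adjusted p = 0.0379) together with MITF (-0.83). TFE3 was at 109 to 203 CPM pre-treatment, 86.8 to 150.1 CPM post-treatment and 101 to 147 CPM at washout.

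In SM, TREM2, MSR1 and MARCO were scarce, each having no count in some libraries. TREM2 was at 0.133 to 0.540 CPM pre-treatment (2 to 11 counts a library, n = 6), 0 to 1.43 CPM post-treatment (n = 8) and 0 to 0.511 CPM at washout (n = 7), with no count in 1 post-treatment and 2 washout libraries. With 3 counts as the floor, a count of 0 allowed up to 0.162 to 0.207 CPM in these libraries, which covers counting error only. MSR1 was at 0 to 2.01 CPM and MARCO at 0 to 4.71 CPM over the 21 SM libraries. GPNMB was at 7.72 to 348 CPM, LGALS3 at 7.65 to 105 CPM, SPP1 at 4.68 to 247 CPM and CD9 at 10.7 to 137 CPM. FABP5 was the steadiest, at 11.7 to 55.3 CPM.

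**Figure D5:**
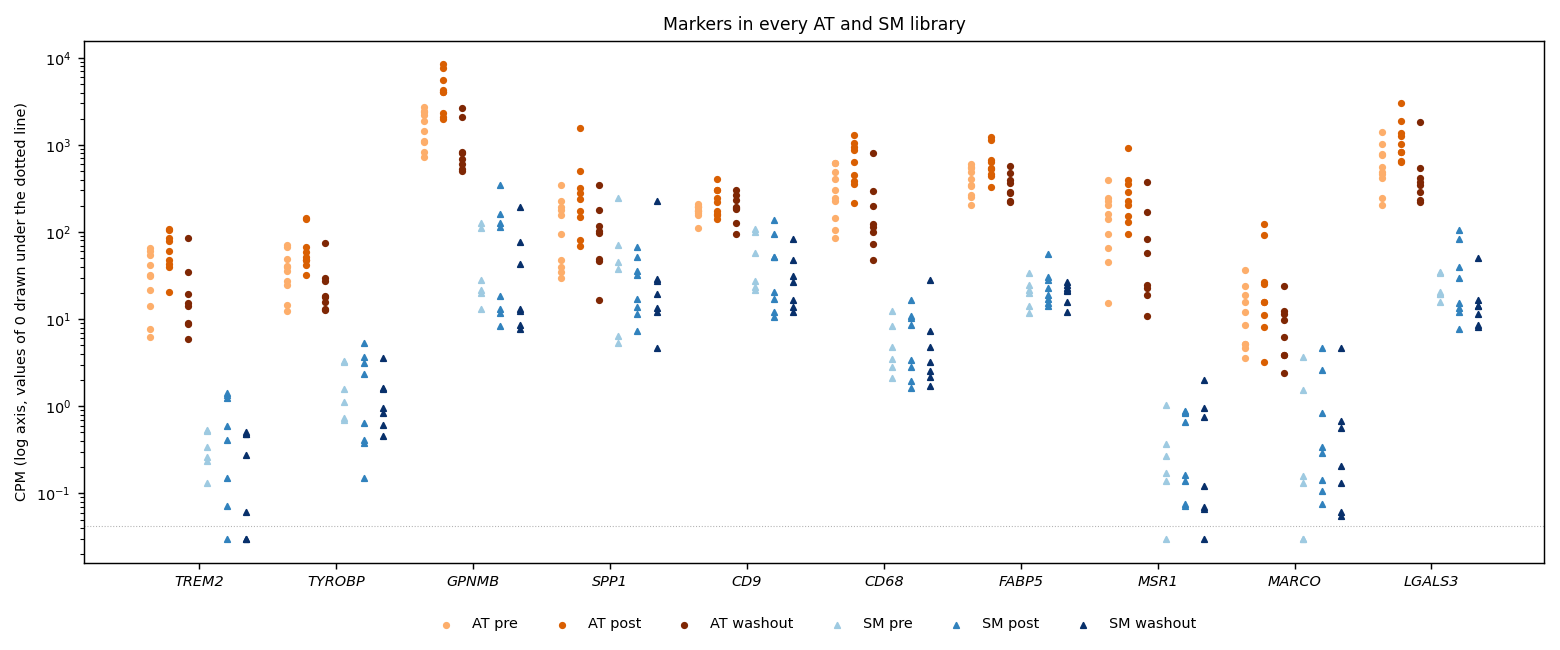
Level of each marker in CPM (vertical log axis) in every AT library (circles) and SM library (triangles), in order of time point. Pre-treatment levels of SPP1 and MARCO overlap between the tissues. For CD9 the lowest pre-treatment AT library, at 112 CPM, is close to the highest pre-treatment SM library, at 109 CPM. CPM is scaled within each tissue, so the tissues are not on a common scale.

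Pre-treatment AT and SM were compared in a fit over 12322 genes tested in both tissues. Of the 10 markers, 9 were DE and higher in AT, against 41.2% of all genes. The log2 fold change was 5.74 for TREM2 (SE 0.74, adjusted p = 1.08e-08), 5.22 for CD68, 4.58 for GPNMB, 4.02 for LGALS3, 3.81 for TYROBP, 3.76 for MARCO and 3.56 for FABP5. For MSR1 it was 8.24 (SE 1.01). The estimates for MSR1 and TREM2 each rest on 38 counts in 6 pre-treatment SM libraries, and that for MARCO on 107. CD9 was higher by 1.06 (SE 0.42, adjusted p = 0.020), a call lost without animal 19832 (adjusted p = 0.0948), without animal in the model (adjusted p = 0.0644) and with the identifier series in the model (adjusted p = 0.26). SPP1 did not pass the test (0.67, SE 0.71, adjusted p = 0.388). With library size alone in place of TMM the median of all genes moved from 0.09 to 0.80, and the same 9 markers were DE.

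Between time points in SM, 0 of 10 markers were DE in each comparison, and 0 had an unadjusted p under 0.05, against 3.25%, 17.3% and 13.4% of all genes in the order given next. The background was 0%, 0.190% and 0.0634% of 12617 genes for post-treatment vs pre-treatment, washout vs post-treatment and washout vs pre-treatment, and DESeq2 and voomWithQualityWeights also called 0 markers. The post-treatment estimates ran from -0.70 for SPP1 (SE 0.58) to 0.79 for MARCO (SE 0.76). The markers nevertheless varied between SM libraries. The post-treatment library of animal 21189 was the highest of its group for 7 of 10 markers and the washout library of animal 22130 for 7 of 10. Over the 21 SM libraries the levels of the markers went with the mean level of the pan-macrophage genes (rho 0.76 to 0.93 for TREM2, TYROBP, GPNMB, CD9, CD68, MSR1, MARCO and LGALS3, 0.56 for FABP5 and 0.38 for SPP1) while rho with that of the adipocyte genes was -0.16 to 0.29. Of these adipocyte genes, 1 had a lower estimate in AT than in SM, so their mean in SM is no measure of adipocytes alone. Animal 21189 had the highest SPP1 level in SM at each time point, 247, 67.0 and 228 CPM.

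Whether the changes in AT differed from those in SM was tested as an interaction. For the post-treatment change, 0 of 10 markers passed (background 0.0730%), and 1 had an unadjusted p under 0.05, SPP1 with a difference of 2.07 (SE 0.97, adjusted p = 0.465). For washout vs post-treatment, 0 of 10 passed (background 22.5%), with MSR1 at -2.33 (SE 1.10, unadjusted p = 0.0414, adjusted p = 0.126) and differences of 9 markers below 0. Without animal 23004, CD68 and MSR1 passed in this comparison, against 21.3% of all genes. For washout vs pre-treatment, 0 of 10 passed (background 16.9%), and 0 had an unadjusted p under 0.05. DESeq2 and voomWithQualityWeights called 0 markers in each of these 3 comparisons, so a larger change of the markers in AT than in SM was not shown. The standard errors of these differences ran from 0.43 for FABP5 to 1.59 for MSR1. The latter went with a post-treatment difference of 0.006, and MSR1 had 1.10 and 1.17 in the washout interactions.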

How the data were processed

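Stranded mRNA libraries were made from AT and SM biopsies. Alignment by the authors used STAR and the MacaM build of the macaque genome. The tool that counted the reads is not given in the sources used here. The deposited values are counts of reads per gene, without normalization, in 48 libraries. A further 3 labelled SM samples had no counts and were not analysed. Of 16103 rows, 70 repeat entries of a gene were dropped. Total counts ranged from 14455195 to 23940980. Counting error was largest for TREM2, MSR1 and MARCO in SM, the markers with libraries at 0.

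A gene entered the test of a tissue if 10% or more of its libraries reached 0.5 CPM. Tests were run with edgeR 4.0.16 in R 4.3.3 (TMM, robust quasi-likelihood test, two-sided, p-values adjusted across the whole table by Benjamini-Hochberg), in a model with time point and animal. DE required 0.05 for the adjusted p and more than 0.26 on the log2 scale. The SE of an edgeR estimate was derived from the test, as the absolute log2 fold change divided by the square root of F. It is imprecise for estimates near 0. Tissues were compared in 1 fit of tissue by time point groups and animal, without a fold limit for interactions. For log2 CPM the prior count was 2. Samples were grouped by the labelled tissue, time point and animal. The pairing by animal comes from the labels. Deviations from the group means correlated at a median of 0.352 for 25 pairs of AT libraries of the same animal and of -0.0354 for 217 other pairs.

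The members and the 15 other gene lists were chosen with earlier results of these data known. The text names all members, the 10 genes most like TREM2 by Spearman's rho, and list genes from the 4 smallest unadjusted p post-treatment of their list, except for items that are not reported here. Rank correlations are descriptions. Alternatives were voomWithQualityWeights of limma 3.58.1, DESeq2 1.42.0, library size alone, DESeq2 size factors, no filter, no animal term, the library identifier series (3 number series of unknown meaning) as a covariate, 2 time points only, a pan-macrophage covariate, each animal left out, and AT without the pre-treatment library of animal 20275. Added after the data were seen were edgeR's earlier quasi-likelihood method, AT without the washout library of animal 23004, and animal within tissue for the interactions. The tests were checked on simulated data. Python 3.11.15, NumPy 2.4.6, pandas 2.3.3, SciPy 1.17.1 and matplotlib 3.10.9 were also used. No genome of the files' build was used here, so no sequences or coordinates are given.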

Additional observations from a re-analysis of the deposited data

Results flagged for a closer look

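In 60 groups of values, 10 markers in 6 groups of libraries, 19 single values lay apart from the rest of their group by Dixon's criterion. For normally distributed values, chance meets it in about 1 of 20 groups, or 3 of 60. It was applied to CPM without a log. Apart from CD9 in the pre-treatment AT library of animal 20275, all flagged values lay at the high end. The 3 of 60 is therefore no firm expectation for these values. Values for 1 library are not independent, since the markers move together.

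In AT, 5 of them came from the washout library of animal 23004: TREM2 at 84.4 CPM (next 34.4), TYROBP at 74.3 CPM (next 29.5), CD68 at 806 CPM (next 292), MSR1 at 371 CPM (next 172) and LGALS3 at 1852 CPM (next 544). The post-treatment library of animal 20275 was apart for SPP1 at 1584 CPM (next 508) and MSR1 at 920.1 CPM (next 391), and its pre-treatment library was apart at the low end for CD9 at 112 CPM (next 158). MARCO at washout was apart in animal 26292, at 23.9 CPM (next 12.5).

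In SM, another 5 came from the washout library of animal 22130: TYROBP at 3.59 CPM (next 1.63), GPNMB at 194 CPM (next 77.8), CD68 at 28.1 CPM (next 7.33), MARCO at 4.70 CPM (next 0.679) and LGALS3 at 50.5 CPM (next 16.8). Animal 21189 was apart for GPNMB post-treatment, at 348 CPM (next 159), and for SPP1 pre-treatment, at 247 CPM (next 71.4), and at washout, at 228 CPM (next 28.7). FABP5 post-treatment was apart in animal 21866, at 55.3 CPM (next 30.3), and MSR1 pre-treatment in animal 24849, at 1.03 CPM (next 0.369).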

How the results depend on the processing

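The number of DE markers post-treatment in AT, 1, became 6 with DESeq2 (TREM2, TYROBP, GPNMB, CD68, FABP5 and LGALS3), which called 9.02% of all genes higher against edgeR's 6.98%, 2 without the replicate block, that is, without animal in the model (GPNMB and FABP5), 0 with the pan-macrophage covariate and 0 to 6 with an animal left out. The cause was not tested here or for the changes that follow. The 9 at washout compared to post-treatment became 1 with that covariate and 8 to 9 with an animal left out. The 0 at washout compared to pre-treatment became 4 with voomWithQualityWeights, 1 with 2 time points only (GPNMB), 3 with the covariate and 2 without the washout library of animal 23004, and stayed 0 with any animal left out. The AT minus SM difference at washout vs post-treatment had 0 to 2 with an animal left out, and AT against SM before treatment 8 to 9. In SM and in the other interactions the count was 0 under every alternative run. Leaving animal out of the model changed no other count by over 1.5 times.

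With the pan-macrophage covariate the direction turned, post-treatment, for TREM2 (-0.15), TYROBP (-0.0651), CD9 (-0.12), CD68 (-0.11), MSR1 (-0.45) and LGALS3 (-0.0023). At washout compared to post-treatment it turned for TREM2 (0.68), TYROBP (0.33), SPP1 (0.58), CD9 (0.69), CD68 (0.41), FABP5 (0.31), MSR1 (0.61) and LGALS3 (0.57), and compared to pre-treatment for TREM2 (0.52), TYROBP (0.27), GPNMB (0.17), SPP1 (0.76), CD68 (0.30), FABP5 (0.37), MSR1 (0.16) and LGALS3 (0.57). CD9 at washout compared to pre-treatment was -0.0294 without the pre-treatment library of animal 20275, -0.0258 without the washout library of animal 23004, and -0.0115 to 0.2077 with an animal left out. Of the other values of single markers, 770 kept direction and call, 22 newly passed the test and 13 no longer passed. Scaling by library size moved the median of all genes to 0.31 and 0.20 in the washout interactions. The depth limits what can be said of TREM2, MSR1 and MARCO in SM.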

Other observations

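Other immune lists are given here by their counts and medians, from the same edgeR tests in AT. Over all genes tested, 6.98% were DE and higher and 8.49% DE and lower post-treatment. At washout compared to post-treatment, 17.6% were DE and higher and 17.8% DE and lower. Of 8 genes of resident AT macrophages tested, 1 was DE and higher post-treatment, the complement receptor VSIG4 (log2 fold change 0.94, adjusted p = 0.0308). F13A1, the coagulation factor chain made by such cells, had an estimate of -0.55 (adjusted p = 0.0653). Relative to pre-treatment, 6 of the 8 resident genes were DE and lower at washout, with a median of -0.95, against 7.96% of all genes tested. Of the 10 lipid-associated markers edgeR called 0 and voomWithQualityWeights 4 in this comparison. Among the resident genes that were DE and lower were F13A1 (-1.36, adjusted p = 0.000122), VSIG4 (-0.85, adjusted p = 0.0418), FOLR2, a folate receptor (-1.05), and the mannose receptor MRC1 (-1.17). Against these, 1 of the 8 resident genes had an estimate above 0, at 0.63. At washout compared to post-treatment, 6 of the 8 were DE and lower and 1 was DE and higher. Whether the 2 lists differ was not tested.

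Of 7 monocyte and neutrophil genes, 0 were DE and higher and 1 was DE and lower post-treatment, CXCR2 (-0.50, adjusted p = 0.0422), and at washout compared to post-treatment 2 were DE and lower. Of 5 T cell genes tested, CD8A was DE and higher post-treatment (0.51, adjusted p = 0.0213) and lower at washout (-0.69). None of 4 dendritic cell genes, 4 B cell genes, 6 endothelial genes, 7 skeletal muscle genes or 3 keratinocyte genes tested was DE post-treatment, and 0 of them had an unadjusted p under 0.05. Of 7 adipose progenitor genes, DPP4 (0.81) and COL1A1 (1.02) were DE and higher post-treatment. Of 4 mature adipocyte genes, LEP, which encodes leptin (-1.93), and the lipid droplet protein PLIN1 (-0.62) were DE and lower.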
